A study of Sus scrofa with 67 samples.

Results

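The endometrium, the inner lining of the uterus, of gilts on day 9 of the oestrous cycle was compared with that of day 0, over all genes measured. The comparison used 6 of 66 libraries, the 3 labelled endometrium day 9 and the 3 labelled endometrium day 0. They belong to an RNA sequencing study of the pig ovary, endometrium and oviduct, in which the same organs were taken every 3 days from day 0 to day 18. Day 0 was the onset of oestrous behaviour, and day 9 lies in the luteal phase. Both groups were non-pregnant gilts of a Landrace by Yorkshire cross that received no treatment, aged 6 to 8 months by the study's methods, which give 3 gilts for each day. Different gilts were sampled on the 2 days, and the endometrium came from the mid part of the uterine horns, separated from the muscle layer. Each library therefore holds the RNA of epithelium, glands, stroma, vessels and blood cells together. Of the 25322 genes in the count table, 15341 were tested, 9965 of them with a symbol.

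At oestrus the ovary carries large follicles and the uterus is under oestrogen, whereas in the luteal phase the corpora lutea secrete progesterone. Progesterone acts through its nuclear receptor, which it is known to withdraw from uterine epithelium with time, and turns the endometrial glands to the secretion of histotroph, the mixture of proteins, lipids, sugars and ions that feeds a free-living pig conceptus. In a cycle without conceptuses the endometrium later releases prostaglandin F2alpha, which ends the life of the corpora lutea.

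The total count was between 9555136 and 10136163 per library on day 0 and between 9826274 and 10098430 on day 9. Levels are given as CPM, read counts relative to the TMM-scaled total of the library, in the order of library 1, 2 and 3. The level of 3 counts, taken as the lowest detectable level, came to between 0.277 and 0.301 CPM on day 0 and between 0.306 and 0.320 CPM on day 9. The 6 pairs of libraries of 1 day had a chi-squared statistic per degree of freedom of 13.97 to 39.8, where counting noise gives about 1, so no pair was 1 library deposited again. The tissue labels were checked against marker genes. INHA, LHCGR and CYP17A1 of the ovary did not exceed 0.773 CPM in any endometrial library of the 2 days, and the oviductal glycoprotein OVGP1 was at 22.6 to 102 CPM on day 0 and 1.64 to 3.89 CPM on day 9, against 50694 to 188058 CPM and 994 to 6859 CPM in the oviduct, all on the scale of the 66 libraries together. CYP11A1, the first enzyme of steroid synthesis and the other ovarian marker, was detected at 3.90 to 6.60 CPM on day 0 and 3.57 to 4.74 CPM on day 9 in the endometrium, against 322 to 2587 CPM and 4815 to 5735 CPM in the ovary. The epithelial genes EPCAM and KRT8 were abundant on both days. On the first principal component of the 22 endometrial libraries, library 2 of day 15 lay at 39.1, within the 19.3 to 61.96 of days 6, 9 and 12, whereas the other 3 libraries of day 15 lay between -59.4 and -39.3. It is not compared here but enters the fit through the spread shared by all days.

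The endometrium of day 9 differed from that of day 0 in about as many genes that were higher as genes that were lower. By the quasi-likelihood F test of edgeR, 3756 of the 15341 genes tested (24.5%) had a Benjamini-Hochberg adjusted p under 0.05 and are called changed. Of these, 1835 (12.0% of the genes tested) rose, with a median log2 fold change of 1.24, and 1921 (12.5%) fell, with a median of -1.24. The median over all genes tested was -0.03. TMM scaling takes most genes as unchanged, so a median near 0 and a near-even split may follow partly from the scaling. A log2 fold change of at least 3 in size was reached by 258 of the genes that rose and 187 of those that fell. The libraries of the 2 days did not overlap in 3670 of the called genes, and they did not overlap in 50.7% of all genes tested. Because whole tissue was sequenced, fewer cells of a type and less RNA per cell cannot be told apart in any of these differences. The number called was 2314 without day 0 library 3 and 2442 without day 9 library 3, and the genes that fell numbered 1195 without day 9 library 2. With library 2 of day 15 left out of the fit, a choice made after seeing the data, 4485 genes were called, 2249 higher and 2236 lower.

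**Figure D1:**
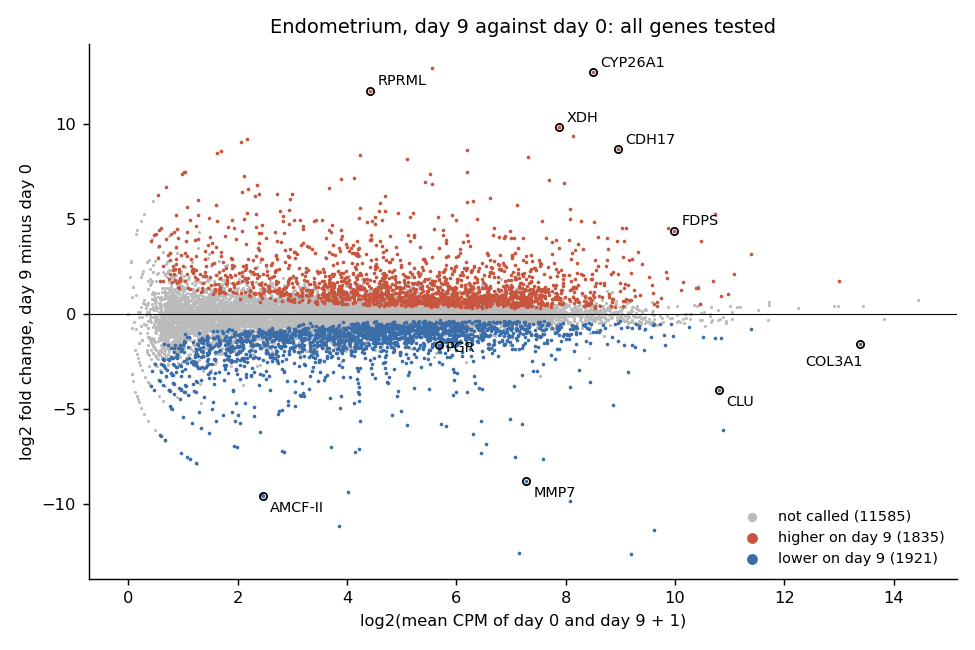
Each point is 1 of the 15341 genes tested, with log2(mean CPM + 1) of the 6 libraries on the horizontal axis and the log2 fold change of day 9 minus day 0 on the vertical axis; the 1835 genes called higher and the 1921 called lower are coloured. Called genes lie on both sides of 0 at all but the lowest levels.

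The largest changes were taken among genes that had a symbol, were called, did not overlap between the days and held 10 counts or more in every library of the higher day. The 10 largest rises were those of CYP26A1, RPRML, XDH, SLC26A4, AFP, IL24, CDH17, SLC7A3, HPGD and RLBP1. Both genes of vitamin A among them were close to absent on day 0. CYP26A1 (ENSSSCG00000010475), the enzyme that breaks down retinoic acid, was at 0, 0.0955 and 0.185 CPM on day 0 and 792, 858 and 505 CPM on day 9. All 3 libraries of day 9 were far above the detectable level that all 3 libraries of day 0 lay under (adjusted p = 0.000107), and the ratio of the summed counts was 7489 (95% exact interval 2562 to 36316), an interval that covers counting error only. RLBP1 (ENSSSCG00000001836), a carrier of 11-cis-retinoids known from the eye, was at 0.201, 0.191 and 0.277 CPM on day 0 and 62.3, 54.6 and 82.9 CPM on day 9. Its day 0 libraries held 2 or 3 counts, so its ratio of counts, 298 (95% exact interval 144 to 741), is uncertain by several fold (adjusted p = 0.00357).

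Transporters and metabolic enzymes formed the next group of large rises. SLC26A4 (ENSSSCG00000028969), or pendrin, which exchanges chloride for bicarbonate or iodide, was at 1.10, 0.286 and 1.1998 CPM on day 0 and 478, 563 and 639.6 CPM on day 9. It was high in each library of day 9 and its mean rose 649-fold (log2 fold change 9.32 ± 1.36 (SE), adjusted p = 0.000201). SLC7A3 (ENSSSCG00000024346), a carrier of the cationic amino acids arginine and lysine, was at 0.100, 0 and 0.185 CPM on day 0 and 32.1, 53.9 and 20.3 CPM on day 9. Its libraries of day 0 held at most 2 counts, and the ratio of the counts was 371 (95% exact interval 126 to 1799.9) with an adjusted p = 1.79e-05. HPGD (ENSSSCG00000009699), which inactivates prostaglandins, was at 2.11, 0.286 and 0.738 CPM on day 0 and 290.2, 364 and 293 CPM on day 9, a 303-fold rise of the mean (log2 fold change 8.24 ± 1.30 (SE), adjusted p = 0.000345). XDH (ENSSSCG00000008522), which makes uric acid from purines and is also a coat protein of milk fat droplets, was at 0.301, 1.05 and 0.185 CPM on day 0 and 540.3, 669 and 193 CPM on day 9. The third library of day 9 was the lowest of that day and still far above day 0 (fold 913, log2 fold change 9.80 ± 1.68 (SE), adjusted p = 0.000615). HPGD had a log2 fold change of 9.23 without day 0 library 1. XDH had a log2 fold change of 10.86 without day 0 library 2.

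The other 4 encode adhesion or secreted proteins, or a protein of uncertain role. CDH17 (ENSSSCG00000006106), an intestinal cadherin, was at 3.51, 2.39 and 1.48 CPM on day 0 and 917, 707 and 1328 CPM on day 9, 400.4-fold higher in the mean (log2 fold change 8.64 ± 1.199 (SE), adjusted p = 0.000127). RPRML (ENSSSCG00000017320), related to the cell cycle inhibitor reprimo, had 0 counts in all 3 libraries of day 0 and was at 72.9, 44.4 and 5.47 CPM on day 9. Its day 9 libraries spread more than 10-fold, and their mean was at least 142-fold higher than the floor of 3 counts per library (adjusted p = 0.000839). AFP (ENSSSCG00000008949), the fetal serum protein alpha-fetoprotein, also had 0 counts on day 0 and was at 3.95, 9.18 and 7.84 CPM on day 9, at least 24.3-fold higher (adjusted p = 0.00213). IL24 (ENSSSCG00000015655), a cytokine of the interleukin-10 family, had 0 counts on day 0 and was at 2.13, 1.53 and 15.3 CPM on day 9, at least 21.9-fold higher (adjusted p = 0.0406). Most of the IL24 mean came from the third library of day 9. The call of IL24 was lost without any 1 library of day 0 or day 9 library 3 (adjusted p from 0.0894 to 0.153). The IL24 call was also lost with the replicate number as a block (adjusted p = 0.0558).

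**Figure D2:**
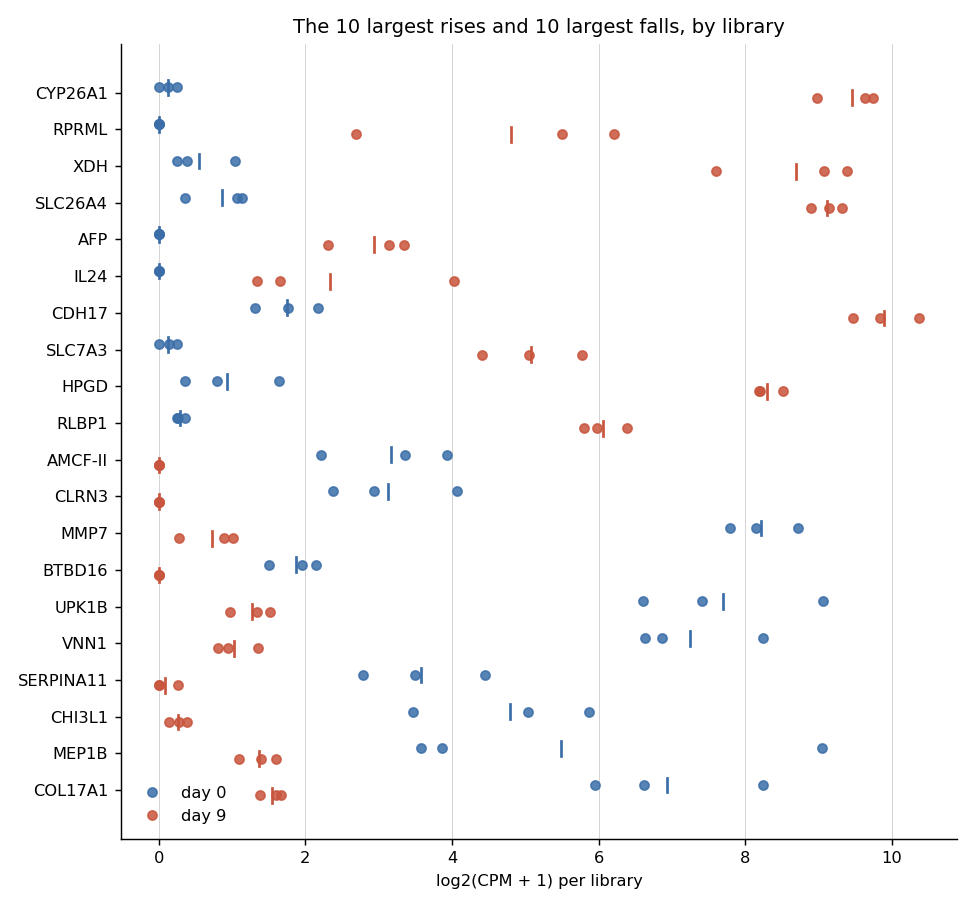
The 10 largest rises and the 10 largest falls, with log2(CPM + 1) on the horizontal axis and 1 point for each of the 3 libraries of day 0 and of day 9. The 20 genes were chosen among those whose libraries do not overlap between the 2 days. The libraries of 1 day spread widely in MEP1B (day 0) and RPRML (day 9).

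The 10 largest falls were those of AMCF-II, CLRN3, MMP7, BTBD16, UPK1B, VNN1, SERPINA11, CHI3L1, MEP1B and COL17A1. Several encode proteins of the matrix or of the epithelial surface. MMP7 (ENSSSCG00000014982), matrilysin, a matrix protease of glandular epithelium, was at 420.5, 283 and 220.2 CPM on day 0 and 0.853, 1.02 and 0.206 CPM on day 9. It was high in every library of day 0 and held 2 to 10 counts in each library of day 9, a 444-fold fall of the mean (log2 fold change -8.77 ± 1.81 (SE), adjusted p = 0.00236). MEP1B (ENSSSCG00000003732), a subunit of the membrane protease meprin, was at 13.5, 527 and 10.9 CPM on day 0 and 2.03, 1.63 and 1.13 CPM on day 9. Library 2 of day 0 alone carried most of its day 0 level, and without it the log2 fold change was -2.92 instead of -6.84 (adjusted p = 0.193 instead of 0.0151). The MEP1B call was also lost without any 1 library of day 9 (adjusted p from 0.0516). COL17A1 (ENSSSCG00000010607), the hemidesmosome collagen that anchors epithelium to its basement membrane, was at 302, 61.0 and 97.0 CPM on day 0 and 1.60, 2.04 and 2.17 CPM on day 9, 79.2-fold lower in the mean (log2 fold change -6.30 ± 0.96 (SE), adjusted p = 0.000289). UPK1B (ENSSSCG00000011904), a uroplakin of the apical membrane, was at 534, 96.4 and 169 CPM on day 0 and 0.960, 1.53 and 1.86 CPM on day 9, 184-fold lower (log2 fold change -7.51 ± 1.27 (SE), adjusted p = 0.000584). The log2 fold changes of COL17A1 and UPK1B were -5.34 and -6.50 without day 0 library 1.

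Secreted proteins and a surface enzyme made up most of the rest. VNN1 (ENSSSCG00000004181), the pantetheinase that frees vitamin B5, was at 301, 98.3 and 115 CPM on day 0 and 0.747, 0.918 and 1.55 CPM on day 9, 160.0-fold lower (log2 fold change -7.30 ± 1.44 (SE), adjusted p = 0.00173). VNN1 had a log2 fold change of -6.62 without day 0 library 1. CHI3L1 (ENSSSCG00000015476), a chitinase-like glycoprotein secreted in inflamed and remodelling tissue, was at 31.9, 57.3 and 10.1 CPM on day 0 and 0.107, 0.306 and 0.206 CPM on day 9. It had 1 to 3 counts in each library of day 9, and the ratio of the counts, day 0 over day 9, was 158 (95% exact interval 72.3 to 431) with an adjusted p = 0.00123. SERPINA11 (ENSSSCG00000002479), a member of the serpin family, was at 10.3, 20.9 and 5.91 CPM on day 0 and 0, 0.204 and 0 CPM on day 9, a ratio of 178 (95% exact interval 49.0 to 1476) with an adjusted p = 0.00485. AMCF-II (ENSSSCG00000008957), a pig chemokine that attracts neutrophils, was at 14.2, 3.63 and 9.23 CPM on day 0 and had 0 counts in all 3 libraries of day 9. It was thus at least 29.0-fold lower on day 9 (adjusted p = 0.000888). CLRN3 (ENSSSCG00000010753), a membrane protein of the clarin family, was at 15.7, 4.20 and 6.64 CPM on day 0 and BTBD16 (ENSSSCG00000010701) at 3.41, 2.86 and 1.85 CPM. Both had 0 counts in all 3 libraries of day 9, so that they were at least 28.4-fold lower (adjusted p = 0.00405) and at least 8.68-fold lower (adjusted p = 0.00242). AMCF-II has close relatives in the genome, and reads shared between them could have been split or dropped in the counting.

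The receptors for the ovarian steroids did not move together. Of the 15 tested genes in a list of steroid receptors and their co-regulators, 6 rose, 3 fell and 6 were not called, with a median log2 fold change of 0.11. The counts of this and the following lists stand beside 12.0% higher and 12.5% lower over all genes tested. PGR, the nuclear progesterone receptor, was at 70.9, 71.8 and 83.6 CPM on day 0 and 25.7, 29.5 and 19.1 CPM on day 9. All 3 libraries of day 9 lay under all 3 of day 0, and the receptor fell (log2 fold change -1.61 ± 0.29 (SE), adjusted p = 0.000992). The membrane-associated partners PGRMC1 and PGRMC2 rose instead. PGRMC1 was at 438, 713 and 479.7 CPM on day 0 and 1757, 1540.4 and 1881 CPM on day 9 (log2 fold change 1.67 ± 0.29 (SE), adjusted p = 0.000781), and PGRMC2 was at 68.9, 75.3 and 71.1 CPM on day 0 and 158, 166 and 167 CPM on day 9 (log2 fold change 1.19 ± 0.16 (SE), adjusted p = 0.000124). Among the receptors for oestrogens, ESR1 was at 629, 597 and 710.4 CPM on day 0 and 725, 771 and 593 CPM on day 9, and its days overlapped (log2 fold change 0.11, adjusted p = 0.796), whereas the membrane receptor GPER1 rose from 18.6 ± 4.57 CPM to 105 ± 10.6 CPM (SD, n = 3 each; log2 fold change 2.49, adjusted p = 0.00353). GREB1, a classical target of the oestrogen receptor, was at 21.8, 47.0 and 29.6 CPM on day 0 and 2.99, 1.22 and 2.68 CPM on day 9. All 3 libraries of day 9 were lower than any of day 0 (log2 fold change -3.83 ± 0.71 (SE), adjusted p = 0.00116).

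Among the other members, NR3C1, the glucocorticoid receptor, was not called (log2 fold change -0.37, adjusted p = 0.412). FKBP5, a chaperone partner and known target of progesterone and glucocorticoid receptors, rose from 42.1 ± 8.19 CPM to 163 ± 27.1 CPM (SD, n = 3 each; log2 fold change 1.95, adjusted p = 0.0112), while its relative FKBP4 was not called (log2 fold change -0.20, adjusted p = 0.720). Of the co-activators, NCOA2 rose (log2 fold change 1.85, adjusted p = 0.00102), NCOA1 rose (log2 fold change 0.86, adjusted p = 0.00990) and NCOA3 was not called (log2 fold change 0.13, adjusted p = 0.725). The co-repressor NRIP1 was not called (log2 fold change -0.18, adjusted p = 0.802), and KLF9, a partner of the progesterone receptor, fell (log2 fold change -1.05, adjusted p = 0.0405). FKBP5 missed the threshold without day 0 library 3 (adjusted p = 0.0538). NCOA1 was no longer called without day 9 library 3 (adjusted p = 0.0619). The call of KLF9 was lost without day 0 library 1 or 3 or day 9 library 1 or 2 (adjusted p from 0.0880 to 0.170).

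Of 12 tested genes of steroid metabolism, 3 rose and 2 fell (median 0.45), where 12.0% of all genes tested rose and 12.5% fell. The pair that interconverts cortisol and cortisone moved in opposite directions. HSD11B1, which regenerates active cortisol, was at 185, 109 and 148 CPM on day 0 and 13.3, 9.49 and 12.995 CPM on day 9, lower in every library of day 9 (log2 fold change -3.62 ± 0.51 (SE), adjusted p = 0.000158). HSD11B2, which inactivates cortisol, was at 1.80, 1.62 and 2.12 CPM on day 0 and 29.4, 16.6 and 22.6 CPM on day 9, higher in every library of day 9 (log2 fold change 3.62 ± 0.82 (SE), adjusted p = 0.00416). CYP24A1, which breaks down active vitamin D, was at 111, 36.0 and 48.4 CPM on day 0 and 1.71, 0.918 and 0.722 CPM on day 9, lower in all 3 libraries of day 9 (log2 fold change -5.86 ± 1.35 (SE), adjusted p = 0.00478). HSD17B4, which oxidises oestradiol and takes part in peroxisomal fat oxidation, rose by a log2 value of 0.63 (adjusted p = 0.00577) and HSD17B12, which acts in fatty acid elongation, by 0.63 (adjusted p = 0.00556). CYP24A1 had a log2 fold change of -5.23 without day 0 library 1.

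In prostaglandin metabolism the prostaglandin E2 synthase PTGES and the inactivating enzyme HPGD rose, and the oxytocin receptor fell. Of 17 tested genes, 3 rose, 2 fell and 12 were not called (median -0.36), the falls being near the 12.5% of all genes tested. PTGES, which makes prostaglandin E2, was at 40.6, 18.8 and 21.3 CPM on day 0 and 139, 133 and 153 CPM on day 9, higher in all 3 libraries of day 9 (log2 fold change 2.39 ± 0.49 (SE), adjusted p = 0.00217). HPGD, described above, had the largest rise of the list. PLA2G4A, which frees arachidonic acid from membranes, rose from 53.7 ± 15.9 CPM to 103 ± 11.4 CPM (SD, n = 3 each; log2 fold change 0.94, adjusted p = 0.0491). OXTR, the oxytocin receptor that triggers prostaglandin release, was at 6.82, 3.82 and 9.41 CPM on day 0 and 0.960, 0.714 and 1.13 CPM on day 9 (log2 fold change -2.82, adjusted p = 0.0471), and SLCO2A1, the prostaglandin carrier that loads cells, fell from 12.6 ± 4.19 CPM to 3.46 ± 0.721 CPM (SD, n = 3 each; log2 fold change -1.86, adjusted p = 0.0154). PLA2G4A missed the threshold without day 0 library 2 or 3 or any 1 library of day 9 (adjusted p from 0.0753 to 0.166). OXTR was no longer called without day 0 library 1 or 3 or any 1 library of day 9 (adjusted p from 0.0870 to 0.132). The call of SLCO2A1 was lost without day 0 library 2 or day 9 library 1 or 3 (adjusted p from 0.0564 to 0.0581).

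Among genes listed as uterine secretory products, falls were called more often than rises. Of 30 genes listed, 17 had a matching identifier and were tested. Of these 17, 7 fell, 1 rose (2 with day 15 library 2 left out of the fit) and 9 were not called. The median log2 fold change of the 17 was -1.16. CLU, the secreted chaperone clusterin, was among the most abundant and was at 3842, 2950.4 and 3302 CPM on day 0 and 211, 259 and 163 CPM on day 9. Its 3 libraries of day 9 all lay far under its libraries of day 0 (log2 fold change -3.996 ± 0.51 (SE), adjusted p = 7.74e-05). LCN2, an iron-trapping lipocalin, was at 278, 82.7 and 148 CPM on day 0 and 3.20, 4.08 and 2.99 CPM on day 9 (log2 fold change -5.62 ± 0.84 (SE), adjusted p = 0.000238), and LTF, the iron-binding antimicrobial protein lactotransferrin, was at 115, 10.1 and 54.3 CPM on day 0 and 0.853, 2.04 and 2.37 CPM on day 9 (log2 fold change -5.08 ± 1.14 (SE), adjusted p = 0.00398). Both varied several fold among the libraries of day 0 and were low in all 3 of day 9. SPP1, or osteopontin, a phosphoprotein that binds integrins, fell (log2 fold change -2.98, adjusted p = 0.0193), as did the lysosomal cathepsins CTSH (log2 fold change -1.59, adjusted p = 0.00243) and CTSS (log2 fold change -1.26, adjusted p = 0.00576) and the cholesterol carrier NPC2 (log2 fold change -1.56, adjusted p = 0.000364). STC2, a stanniocalcin hormone, rose from 1.95 ± 0.657 CPM to 8.97 ± 2.95 CPM (SD, n = 3 each; log2 fold change 2.19, adjusted p = 0.00682). SPP1 missed the threshold without day 0 library 1 or any 1 library of day 9 (adjusted p from 0.0593 to 0.153). The log2 fold changes of LTF and SPP1 were -4.18 and -1.76 without day 0 library 1. CTSS and LTF are also made by leucocytes, and of 5 tested markers of macrophages and monocytes 3 fell (LYZ, C1QA and CD68), their summed level being 89.5 to 279 CPM on day 0 and 56.2 to 80.7 CPM on day 9, and 0 of 4 tested neutrophil markers were called (1 with day 15 library 2 left out of the fit), their sum being 5.92 to 14.03 CPM on day 0 and 4.64 to 8.21 CPM on day 9. LYZ was no longer called without day 0 library 1 or 3 or day 9 library 2 or 3 (adjusted p from 0.0512 to 0.132). The call of C1QA was lost without day 0 library 1 or day 9 library 2 or 3 (adjusted p from 0.0583 to 0.0998). CD68 missed the threshold without day 0 library 1 or 3 or day 9 library 3 (adjusted p from 0.0516 to 0.0605). The part of these cells in the falls was not tested.

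Ion, water and nutrient transport changed in both directions, with the largest rises in channels and carriers of epithelium. Of 33 tested genes, 10 rose and 7 fell (median 0.11). SCNN1A, the alpha subunit of the epithelial sodium channel, was at 62.5, 27.7 and 43.4 CPM on day 0 and 735, 727 and 724 CPM on day 9. Its 3 libraries of day 9 were nearly equal and all above day 0 (log2 fold change 4.03 ± 0.49 (SE), adjusted p = 6.50e-05). SLC5A1, the sodium-glucose cotransporter SGLT1, was at 23.97, 14.03 and 11.4 CPM on day 0 and 539, 434 and 585 CPM on day 9 (log2 fold change 4.98 ± 1.11 (SE), adjusted p = 0.00384), and SLC26A4, described above, had the largest rise. The calcium channel TRPV6 rose (log2 fold change 2.40, adjusted p = 0.0101), as did the glucose carrier SLC2A12 (log2 fold change 1.70, adjusted p = 0.00119). FXYD3, a regulator of the sodium pump, was at 48.9, 15.6 and 14.2 CPM on day 0 and 0.853, 0.918 and 2.17 CPM on day 9, lower in every library of day 9 (log2 fold change -4.31 ± 0.85 (SE), adjusted p = 0.00170). CA2, a carbonic anhydrase, was at 29.4, 127 and 48.7 CPM on day 0 and 5.23, 6.43 and 2.27 CPM on day 9 (log2 fold change -3.88 ± 0.93 (SE), adjusted p = 0.00597), and SLC38A4, an amino acid carrier, was at 48.8, 21.9 and 42.3 CPM on day 0 and 2.77, 3.78 and 6.09 CPM on day 9 (log2 fold change -3.16 ± 0.49 (SE), adjusted p = 0.000332). The list's falls numbered 4 without day 9 library 2. CA2 had a log2 fold change of -3.07 without day 0 library 2. FXYD3 had a log2 fold change of -3.49 without day 0 library 1.

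Of 22 tested genes of cholesterol synthesis and uptake, 11 rose, 0 fell and 11 were not called, with a median log2 fold change of 1.53, against 12.0% and 12.5% of all genes tested. FDPS, which makes farnesyl diphosphate, was at 88.6, 97.4 and 93.6 CPM on day 0 and 1786, 1548 and 2456 CPM on day 9. All 3 libraries of day 9 were far above all 3 of day 0 (log2 fold change 4.37 ± 0.80 (SE), adjusted p = 0.00104). MSMO1, a later sterol oxidase, was at 50.4, 69.7 and 59.6 CPM on day 0 and 347, 545 and 244 CPM on day 9 (log2 fold change 2.66 ± 0.55 (SE), adjusted p = 0.00246). HMGCS1, MVK, ACAT2, FDFT1, SQLE, CYP51A1 and SC5D also rose, with log2 fold changes from 1.205 (MVK) to 2.22 (SQLE). The summed level of the list's genes was 1365 to 1747 CPM on day 0 and 6073 to 6351 CPM on day 9. The number that rose was 5 without day 0 library 1, 7 without day 0 library 3, 7 without day 9 library 1 and 6 without day 9 library 2. HMGCS1 was no longer called without day 0 library 1 or 3 or day 9 library 2 (adjusted p from 0.0632 to 0.0819). The call of MVK was lost without any 1 of the 6 libraries (adjusted p from 0.0527 to 0.155). ACAT2 missed the threshold without day 0 library 1 or 3 or day 9 library 1 or 2 (adjusted p from 0.0570 to 0.0684). SQLE was no longer called without any 1 library of day 0 or day 9 library 1 or 2 (adjusted p from 0.0565 to 0.101). The call of SC5D was lost without day 0 library 1 (adjusted p = 0.0530).

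**Figure D3:**
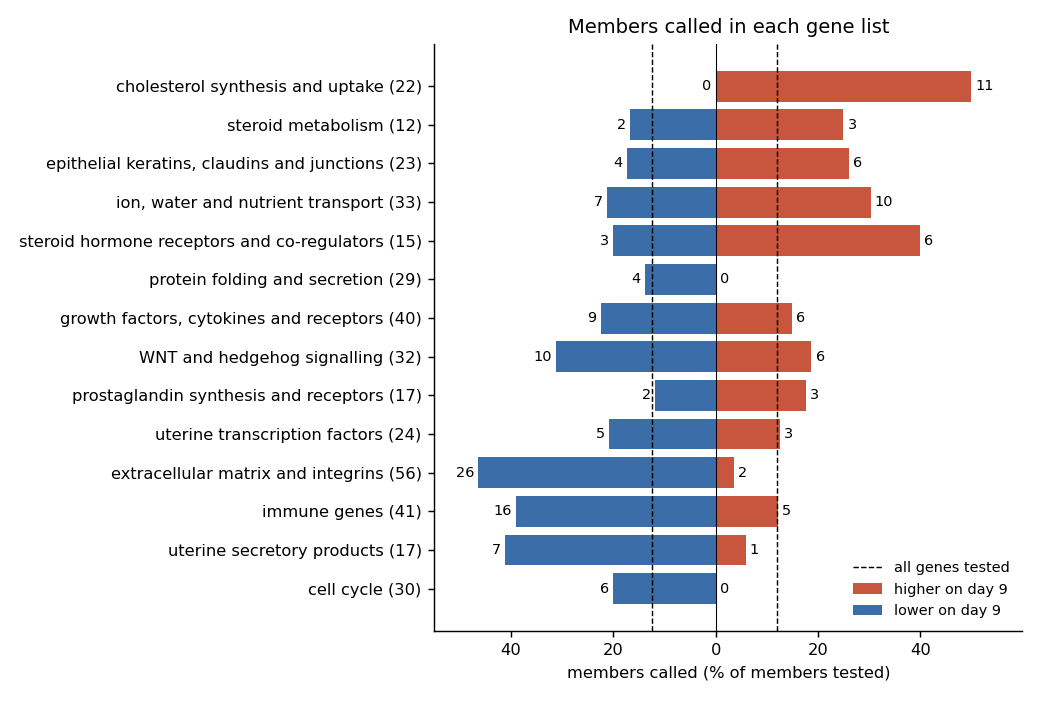
Share of the tested members of each gene list that were called higher or lower on day 9 against day 0, in percent, with dashed lines at the shares over all genes tested (12.0% higher and 12.5% lower). Among these 14 lists, the share of rises is highest for cholesterol synthesis and uptake (11 of 22) and that of falls for the extracellular matrix (26 of 56).

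Among the 14 lists of pathways, that of the extracellular matrix held the most falls. Of 56 tested genes of matrix, matrix proteases and integrins, 26 fell and 2 rose (median -0.83). Fibrillar collagens were among the most abundant transcripts of the tissue, and COL3A1 was at 16174, 14276 and 17336 CPM on day 0 and 3477, 4374 and 8077 CPM on day 9 (log2 fold change -1.59 ± 0.25 (SE), adjusted p = 0.000345). COL1A2 was at 2391, 2818 and 2591 CPM on day 0 and 771, 902 and 1569 CPM on day 9, again lower in every library of day 9 (log2 fold change -1.27 ± 0.22 (SE), adjusted p = 0.000629). LAMB3, a laminin chain of the epithelial basement membrane, was at 156, 64.4 and 105 CPM on day 0 and 2.03, 1.02 and 2.48 CPM on day 9 (log2 fold change -5.87 ± 0.99 (SE), adjusted p = 0.000553). Matrix proteases fell as well: beside MMP7, MMP9 was at 10.1, 10.02 and 17.7 CPM on day 0 and 0.533, 0.612 and 0.206 CPM on day 9 (log2 fold change -4.77 ± 0.89 (SE), adjusted p = 0.00121), MMP14 fell by 1.501 on the log2 scale (adjusted p = 0.00142) and MMP2 by 1.16 (adjusted p = 0.00332).

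The plasminogen activator PLAT was at 1007, 343 and 581 CPM on day 0 and 51.0, 62.6 and 51.4 CPM on day 9, high in all 3 libraries of day 0 (log2 fold change -3.55 ± 0.56 (SE), adjusted p = 0.000336). The proteoglycan VCAN fell by 2.39 on the log2 scale (adjusted p = 0.00242) and DCN, decorin, by 1.21 (adjusted p = 0.00334). Of the integrins, ITGB6 fell by 3.51 (adjusted p = 0.00233), whereas ITGB4, the hemidesmosome integrin, rose from 248 ± 3.58 CPM to 775 ± 87.8 CPM (SD, n = 3 each; log2 fold change 1.64, adjusted p = 0.00125). POSTN, periostin, was at 10.4, 2.10 and 5.81 CPM on day 0 and 17.0, 67.3 and 29.4 CPM on day 9, with library 2 the highest of day 9 (log2 fold change 2.63, adjusted p = 0.0217). POSTN missed the threshold without day 0 library 2 or 3 or day 9 library 2 (adjusted p from 0.0733 to 0.108). POSTN had a log2 fold change of 3.26 without day 0 library 1. POSTN had a log2 fold change of 1.93 without day 9 library 2. Of the 6 tested markers of stroma, COL3A1, DCN and VIM fell, while PDGFRA, PDGFRB and LUM were not called, and their summed level was 17784 to 21838 CPM on day 0 and 5362 to 10467 CPM on day 9. Of the 7 tested markers of smooth muscle 4 fell (ACTG2, DES, CNN1 and TAGLN), with sums of 743 to 1138 CPM on day 0 and 429.7 to 530.0 CPM on day 9, and 2 fell without day 9 library 2. Both sums were lower in every library of day 9. Most of the stromal sum was COL3A1, at 14276 to 17336 CPM on day 0 and 3477 to 8077 CPM on day 9. COL3A1, DCN and LUM are also in the matrix list, so this sum is not separate from it. The part of stromal or muscle content in the fall of the matrix genes was not tested.

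Genes of keratins, claudins and junctions changed in both directions, also within a kind. Of 23 tested, 6 rose and 4 fell (median 0.15). CDH16, a cadherin known from kidney epithelium, was at 2.21, 2.10 and 2.95 CPM on day 0 and 101, 149 and 175 CPM on day 9. It was low in all 3 libraries of day 0 and high in all 3 of day 9 (log2 fold change 5.86 ± 0.90 (SE), adjusted p = 0.000287). CLDN8, a claudin that seals tight junctions to ions, was at 65.7, 25.1 and 41.3 CPM on day 0 and 476, 541 and 644 CPM on day 9 (log2 fold change 3.65 ± 0.48 (SE), adjusted p = 9.33e-05), and CLDN22 was at 2.31, 0.286 and 1.66 CPM on day 0 and 11.7, 24.9 and 12.7 CPM on day 9 (log2 fold change 3.53 ± 0.81 (SE), adjusted p = 0.00462). CLDN11 was at 15.5, 5.54 and 19.1 CPM on day 0 and 0.533, 0.612 and 2.27 CPM on day 9 (log2 fold change -3.54 ± 0.67 (SE), adjusted p = 0.00129), CLDN10 fell by 1.52 on the log2 scale (adjusted p = 0.00121), and GJA1, connexin 43 of gap junctions, by 1.37 (adjusted p = 0.00791). KRT8, a keratin of simple epithelium, rose from 773 ± 103 CPM to 1963 ± 155 CPM (SD, n = 3 each; log2 fold change 1.35, adjusted p = 0.00579). KRT20 was at 0.301, 19.9 and 0.831 CPM on day 0 and 0.960, 0.816 and 0.722 CPM on day 9, so that the days overlapped and library 2 carried the level of day 0 (log2 fold change -3.05, adjusted p = 0.0478). KRT20 was no longer called without day 0 library 2 or any 1 library of day 9 (adjusted p from 0.108 to 0.701). Its log2 fold change was 0.54 without day 0 library 2, and its call was lost with the replicate number as a block (adjusted p = 0.140). CLDN11 had a log2 fold change of -4.52 without day 9 library 3. Of 6 tested markers of epithelium KRT8 rose and EPCAM and ELF3 fell, with a summed level of 2068 to 2416 CPM on day 0 and 2998 to 3249.9 CPM on day 9. Without any 1 library, 0 or 1 of these markers fell. Most of the sum of day 9 was KRT8, at a mean of 1963 CPM against 773 CPM on day 0. Whether epithelial content differed between the days was not tested. Of 4 tested markers of ciliated cells 3 fell (FOXJ1, CCDC40 and TEKT1), with sums of 434 to 606 CPM on day 0 and 111 to 251 CPM on day 9. The call of TEKT1 was lost without day 0 library 3 or day 9 library 3 (adjusted p from 0.0706 to 0.0880).

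Growth factors, cytokines and their receptors changed in both directions. Of 40 tested genes, 6 rose and 9 fell (median -0.31). EGF, a mitogen of epithelium, was at 0.902, 0.286 and 0.554 CPM on day 0 and 5.12, 1.84 and 16.7 CPM on day 9 (log2 fold change 3.74, adjusted p = 0.0256). FST, follistatin, which binds and blocks activin, was at 2.81, 2.67 and 1.02 CPM on day 0 and 27.4, 29.6 and 25.9 CPM on day 9 (log2 fold change 3.67, adjusted p = 0.0150), and PDGFA, a mitogen of stromal cells, was at 12.9, 6.30 and 9.04 CPM on day 0 and 55.1, 63.9 and 20.7 CPM on day 9 (log2 fold change 2.30, adjusted p = 0.000551). All 3 genes were higher in each library of day 9 than on day 0, by very unequal amounts for EGF. The ligand TGFB2, transforming growth factor beta 2, rose (log2 fold change 1.18, adjusted p = 0.00443), and the ligand BMP4, a bone morphogenetic protein, fell (log2 fold change -0.78, adjusted p = 0.00683). Among receptors, FGFR2 rose (log2 fold change 1.69, adjusted p = 0.00620) and FGFR1 fell (log2 fold change -1.44, adjusted p = 0.00103). IL11RA rose (log2 fold change 2.12, adjusted p = 0.0153), while the TGF-beta receptor TGFBR2 (log2 fold change -1.24, adjusted p = 0.00483), the interleukin-6 receptor IL6R (log2 fold change -3.11, adjusted p = 0.0196) and the prolactin receptor PRLR (log2 fold change -1.94, adjusted p = 0.0281) fell. IL1A, the cytokine interleukin-1 alpha, was at 5.21, 4.49 and 5.91 CPM on day 0 and 0.107, 0.204 and 0.619 CPM on day 9, close to the detectable level on day 9 (log2 fold change -4.01 ± 0.94 (SE), adjusted p = 0.00532). EGF missed the threshold without any 1 library of day 0 or day 9 library 3 (adjusted p from 0.0567 to 0.147). FST was no longer called without day 0 library 3 (adjusted p = 0.0692). The call of IL11RA was lost without day 0 library 2 (adjusted p = 0.0533). IL6R missed the threshold without day 0 library 2 or any 1 library of day 9 (adjusted p from 0.0600 to 0.0951). PRLR was no longer called without day 0 library 2 or 3 or any 1 library of day 9 (adjusted p from 0.0579 to 0.130). The log2 fold changes of EGF and IL1A were 2.56 and -4.95 without day 9 library 3. IL6R had a log2 fold change of -2.24 without day 0 library 2. The falls of the list numbered 5 without any 1 library of day 9. Of 4 tested endothelial markers 3 fell (PECAM1, TIE1 and TEK), with summed levels of 456 to 535 CPM on day 0 and 214 to 236 CPM on day 9; their part in the receptor values was not tested. The call of TEK was lost without any 1 of the 6 libraries (adjusted p from 0.0689 to 0.134).

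In WNT signalling the secreted inhibitors moved apart from each other. Of 32 tested genes of WNT and hedgehog signalling, 6 rose and 10 fell (median -0.35). DKK1, which blocks the WNT co-receptors, was at 0.401, 0.191 and 0 CPM on day 0 and 19.1, 25.1 and 38.6 CPM on day 9. It had 0 to 4 counts per library on day 0 and was well detected in all 3 of day 9 (adjusted p = 0.0123). WIF1, which binds WNT ligands, was at 3.81, 4.96 and 1.75 CPM on day 0 and 29.1, 12.96 and 25.9 CPM on day 9 (log2 fold change 2.69, adjusted p = 0.0111). The frizzled-related inhibitors fell instead, SFRP2 with 74.4, 122 and 51.7 CPM on day 0 and 7.04, 4.80 and 4.13 CPM on day 9 (log2 fold change -3.96 ± 0.77 (SE), adjusted p = 0.00155) and SFRP1 by 2.50 on the log2 scale (adjusted p = 0.000289). LGR5, the R-spondin receptor of gland stem cells, was at 14.8, 11.3 and 18.6 CPM on day 0 and 0.853, 1.33 and 1.44 CPM on day 9, lower in all 3 libraries of day 9 (log2 fold change -3.61 ± 0.84 (SE), adjusted p = 0.00507). Of the frizzled receptors FZD5 rose (log2 fold change 2.12, adjusted p = 0.000238), as did FZD6 (log2 fold change 0.90, adjusted p = 0.00564), and FZD4 (log2 fold change -1.14, adjusted p = 0.000615), FZD7 (log2 fold change -1.26, adjusted p = 0.0157) and FZD10 (log2 fold change -1.67, adjusted p = 0.0158) fell. The ligand WNT2 fell (log2 fold change -1.10, adjusted p = 0.00245). DKK1 missed the threshold without day 0 library 3 (adjusted p = 0.0557). WIF1 was no longer called without day 0 library 3 (adjusted p = 0.0557). The call of FZD7 was lost without day 0 library 3 or day 9 library 1 or 2 (adjusted p from 0.0531 to 0.0644). FZD10 missed the threshold without day 0 library 3 or day 9 library 3 (adjusted p from 0.0516 to 0.0614). The list's rises numbered 3 without day 0 library 3.

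Of 24 tested transcription factors of the uterus, 3 rose and 5 fell (median -0.47), the rises being near the 12.0% of all genes tested. PAX2, a factor of the embryonic tract that adult uterine epithelium keeps, was at 80.2, 96.7 and 101 CPM on day 0 and 629, 720.5 and 604 CPM on day 9. All 3 libraries of day 9 were above all 3 of day 0 (log2 fold change 2.81 ± 0.35 (SE), adjusted p = 6.50e-05). GATA2, a partner of the progesterone receptor, rose from 161 ± 19.3 CPM to 413 ± 54.5 CPM (log2 fold change 1.35, adjusted p = 0.00592) and MSX1, a homeobox factor of uterine epithelium, from 285 ± 56.4 CPM to 598 ± 31.1 CPM (SD, n = 3 each; log2 fold change 1.07, adjusted p = 0.0203). MYCN was at 11.03, 2.29 and 24.6 CPM on day 0 and 0.533, 0.510 and 0.516 CPM on day 9, uneven on day 0 and low throughout day 9 (log2 fold change -4.58 ± 0.75 (SE), adjusted p = 0.000459), and its relative MYC fell by 2.22 on the log2 scale (adjusted p = 0.0101). SOX9, a factor of glandular epithelium, was at 18.5, 10.8 and 26.2 CPM on day 0 and 1.07, 5.20 and 0.309 CPM on day 9 (log2 fold change -3.06, adjusted p = 0.0284), and ELF3, an epithelial ETS factor, fell by 2.27 (adjusted p = 0.0293). MSX1 was no longer called without day 0 library 2 or 3 or day 9 library 3 (adjusted p from 0.0556 to 0.0768). The call of MYC was lost without day 9 library 3 (adjusted p = 0.0520). SOX9 missed the threshold without day 0 library 1 or 3 or day 9 library 1 or 3 (adjusted p from 0.0566 to 0.105). ELF3 was no longer called without day 0 library 1 or 3 or day 9 library 1 or 3 (adjusted p from 0.0548 to 0.117). MYCN had a log2 fold change of -3.64 without day 0 library 3. SOX9 had a log2 fold change of -4.72 without day 9 library 2. The list's falls numbered 2 without day 0 library 1 or 3, 3 without day 9 library 1 and 1 without day 9 library 3.

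Immune genes fell more often than they rose, with interferon-responsive genes among the rises. Of 41 tested, 16 fell and 5 rose (median -1.01). Complement genes were among the falls. CFB, a serine protease of the alternative pathway, was at 40.7, 20.1 and 35.3 CPM on day 0 and 3.41, 1.94 and 2.48 CPM on day 9. All 3 libraries of day 9 were lower than any of day 0 (log2 fold change -3.61 ± 0.46 (SE), adjusted p = 7.33e-05), and the same held for the inhibitory protease CFI, at 363, 237 and 297 CPM on day 0 and 38.3, 45.2 and 30.0 CPM on day 9 (log2 fold change -2.98 ± 0.39 (SE), adjusted p = 8.44e-05). C5 fell by 2.99 on the log2 scale (adjusted p = 0.00171) and C3, the central component, by 1.61 (adjusted p = 0.0203). Of the sensors of microbial molecules, TLR4 was at 27.5, 32.6 and 33.5 CPM on day 0 and 2.77, 3.27 and 6.91 CPM on day 9 (log2 fold change -2.85 ± 0.44 (SE), adjusted p = 0.000304), and TLR2 (log2 fold change -1.23, adjusted p = 0.00226) and TLR9 (log2 fold change -2.57, adjusted p = 0.00121) also fell. CXCL2, a chemokine for neutrophils, was at 22.2, 12.1 and 26.5 CPM on day 0 and 1.81, 2.86 and 1.34 CPM on day 9 (log2 fold change -3.33 ± 0.73 (SE), adjusted p = 0.00334); it too belongs to a family of close relatives.

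IFIT2, an interferon-induced antiviral gene, was at 16.4, 13.8 and 24.5 CPM on day 0 and 177, 187 and 145 CPM on day 9. It was higher in every library of day 9 (log2 fold change 3.21 ± 0.49 (SE), adjusted p = 0.000266), and IFIT1, of the same family, rose from 13.7 ± 1.99 CPM to 53.0 ± 7.08 CPM (log2 fold change 1.95, adjusted p = 0.00230). CCL28, a chemokine of mucosal epithelium that draws plasma cells, was at 55.0, 40.7 and 57.0 CPM on day 0 and 504, 442 and 620.4 CPM on day 9, without overlap between the days (log2 fold change 3.36, adjusted p = 0.0366). The call of CCL28 was lost without any 1 of the 6 libraries (adjusted p from 0.0583 to 0.101). C3 missed the threshold without day 0 library 1 or 3 or day 9 library 2 or 3 (adjusted p from 0.0672 to 0.0847). The list's rises numbered 3 without any 1 of the libraries of day 0 and without day 9 library 1 or 2. Beside these, 0 of 5 tested markers of T and NK cells and 0 of 3 of B and plasma cells were called, with sums of 13.7 to 30.9 CPM on day 0 and 16.2 to 23.1 CPM on day 9 and 10.98 to 14.1 CPM on day 0 and 13.5 to 22.6 CPM on day 9. The macrophage markers, given above, fell in 3 of 5 in the full set of libraries and in 0 without day 0 library 1 or day 9 library 3 and 1 without day 0 library 3 or day 9 library 2. Whether fewer macrophages took part in the immune falls was not tested.

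The cell cycle list had a median below 0, but few of its genes passed the test. Of 30 tested, 6 fell and 0 rose, and the median log2 fold change was -1.39 against -0.03 over all genes tested. In 24 of the 30 the 3 libraries of day 9 lay under the 3 of day 0 without overlap, a pattern that held for 26.0% of all genes tested, and for 24.7% in the opposite direction. BUB1B, of the spindle checkpoint, was at 7.72, 4.49 and 6.00 CPM on day 0 and 0.747, 1.84 and 1.34 CPM on day 9 (log2 fold change -2.20, adjusted p = 0.0343). E2F1, a transcription factor of S phase entry, was at 35.9, 21.6 and 23.4 CPM on day 0 and 7.25, 13.2 and 7.01 CPM on day 9 (log2 fold change -1.56, adjusted p = 0.0182), and E2F8, its repressing relative, was at 13.8, 7.54 and 10.98 CPM on day 0 and 0.960, 5.0004 and 1.65 CPM on day 9 (log2 fold change -2.08, adjusted p = 0.0463). MCM4 and MCM5, of the replication helicase, and CCNE1, cyclin E, were the other 3. BUB1B was no longer called without day 0 library 1 or 3 or any 1 library of day 9 (adjusted p from 0.0583 to 0.118). The call of E2F1 was lost without day 0 library 1 or day 9 library 1 or 3 (adjusted p from 0.0714 to 0.0777). E2F8 missed the threshold without any 1 library of day 0 or day 9 library 1 or 3 (adjusted p from 0.0523 to 0.158). MCM4 was no longer called without any 1 of the 6 libraries (adjusted p from 0.0585 to 0.159). The call of MCM5 was lost without any 1 of the 6 libraries (adjusted p from 0.0583 to 0.176). CCNE1 missed the threshold without day 0 library 1 or 3 or any 1 library of day 9 (adjusted p from 0.0549 to 0.0795). With the replicate number as a block, MCM4 and MCM5 were not called (adjusted p = 0.0629 for each). E2F8 had a log2 fold change of -3.02 without day 9 library 2. The number that fell was 0, 3 and 1 without day 0 library 1, 2 or 3 and 0, 2 and 0 without day 9 library 1, 2 or 3, while it was 12 with DESeq2 and 23 with only the 6 libraries in the fit.

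Of 29 tested genes of protein folding and secretion, 4 fell and 0 rose (median -0.22). The falls were near the 12.5% of all genes tested, and 1 rise was called with day 15 library 2 left out of the fit. The disulfide isomerases PDIA4 and PDIA6 fell by 0.76 and 0.73 on the log2 scale (adjusted p = 0.0153 and adjusted p = 0.0210), SSR4 of the translocon by 1.02 (adjusted p = 0.0315) and its partner SSR3 by 0.63 (adjusted p = 0.0191). The libraries of the 2 days did not overlap in any of these 4 genes. The same held for 3670 of the 3756 genes called and for 50.7% of all genes tested. PDIA4 was no longer called without day 9 library 2 or 3 (adjusted p from 0.0522 to 0.0595). The call of PDIA6 was lost without day 0 library 1 or day 9 library 2 or 3 (adjusted p from 0.0685 to 0.0740). SSR4 missed the threshold without day 0 library 1 or day 9 library 1 or 3 (adjusted p from 0.0670 to 0.244). SSR3 was no longer called without day 0 library 1 or day 9 library 2 or 3 (adjusted p from 0.0657 to 0.0924). The list's falls numbered 1 without day 0 library 1, 1 without day 9 library 2 and 0 without day 9 library 3.

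The levels on the other days place day 9 within the cycle. CYP26A1 was near the detectable level on day 3 (0.278 CPM, mean of 3), at 425 CPM on day 6, 718 on day 9 and 37.6 on day 12. Its libraries of day 6 ranged from 49.6 to 625 CPM, so days 6 and 9 overlapped. The means of SLC26A4 and XDH were likewise highest on days 6 and 9, with 187 and 106 CPM on day 6 and 7.06 and 1.33 CPM on day 12. Their libraries of day 6 were uneven, from 19.6 to 283 CPM for SLC26A4 and from 1.12 to 305 CPM for XDH. The lowest XDH library of day 6 was thus near the 0.185 to 1.05 CPM of day 0. RLBP1 and FDPS were still high on day 12, at 78.2 and 1698 CPM. SCNN1A had its highest mean on day 9 (728 CPM) with 383 on day 6 and 286 on day 12. Of the falls, MMP7 was at 946 CPM on day 3, 1.76 on day 6 and 1079 on day 18, and CLU was at 2622, 192 and 2438 CPM on the same days. Both were high on days 18, 0 and 3 and low on days 6 and 9. The mean of PGR was 75.4 CPM on day 0 and 57.4, 50.5 and 24.8 CPM on days 3, 6 and 9. MEP1B, low on day 9, was at 4633 CPM on day 15, with libraries from 178 to 7198 CPM.

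**Figure D4:**
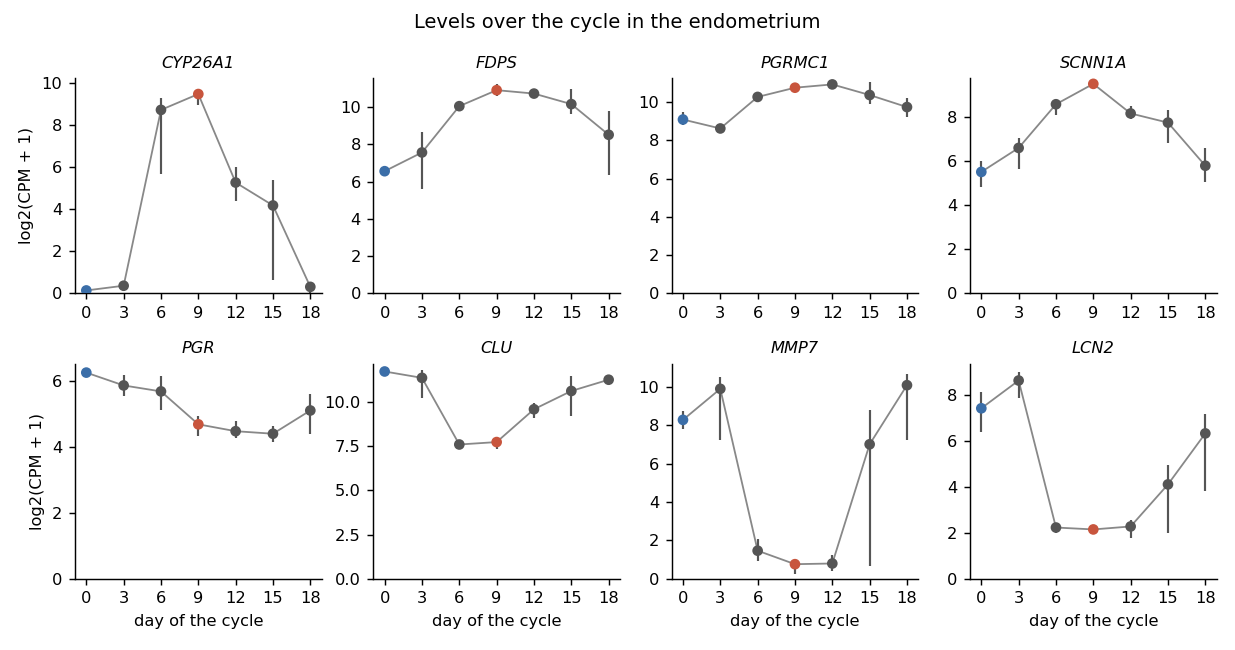
Levels of CYP26A1, FDPS, PGRMC1, SCNN1A, PGR, CLU, MMP7 and LCN2 in the endometrium on the 7 days sampled, in CPM on a log2(CPM + 1) axis; points are means of 3 libraries (4 on day 15) and lines run from the lowest to the highest library. CYP26A1 is highest on days 6 and 9 (425 and 718 CPM), and MMP7 and LCN2 are lowest from day 6 to day 12.

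Day 6 and day 18, a second pair of an early luteal and a late day that shares no library with days 0 and 9, were compared in the same fit. There 3606 of 15341 genes (23.5%) were called, 1790 higher (11.7%) and 1816 lower (11.8%) on day 6. Of the 1835 genes that rose on day 9 against day 0, 896 were also called higher on day 6 than on day 18 (48.8% of the former and 50.1% of the 1790) and 23 were called lower. Of the 1921 genes that fell, 813 were also called lower (42.3% of the former and 44.8% of the 1816) and 17 were called higher. The dispersion was estimated over all 22 endometrial libraries, so the 2 comparisons share that estimate. Of the 10 largest rises, 9 were called the same way, among them CYP26A1 (log2 difference 10.89, adjusted p = 0.000270), and IL24 was not (log2 difference -2.30, adjusted p = 0.527). All 10 of the largest falls were called the same way, among them MMP7 (log2 difference -9.23, adjusted p = 0.00158). FDPS, PGRMC1 and PGR were not called between days 6 and 18 (log2 difference 1.54, adjusted p = 0.126; log2 difference 0.53, adjusted p = 0.190; log2 difference 0.59, adjusted p = 0.145), and SCNN1A was (log2 difference 2.82, adjusted p = 0.000640). The number called between days 6 and 18 was 2286 without day 6 library 2 and 2402 without day 18 library 1. The genes higher on day 6 numbered 1188 without day 6 library 2 and 1160 without day 18 library 3, and those lower numbered 1149 and 1098 without day 6 library 1 or 2 and 1179 without day 18 library 1.

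The same 2 days were compared in the oviduct and the ovary, each in 1 model with the 6 endometrial libraries, to test where the change in the endometrium differed. The difference between the changes was called for 4138 genes (27.2%) against the oviduct. It was positive, the value of the endometrium being the larger, in 2188 (14.4%) and negative in 1950 (12.8%). Against the ovary it was called for 3352 genes (22.0%), positive in 1431 (9.4%) and negative in 1921 (12.6%). Within the other organs themselves, 21.1% of the genes were called between the days in the oviduct and 34.1% in the ovary. These 2 tests share the endometrial libraries. Both counts were smaller in fits of all 7 days (2516 and 1735). CDH17 rose in the endometrium and fell in the oviduct, from 5.50 to 0.352 CPM (adjusted p = 0.000214), and the difference between the tissues was 12.61 on the log2 scale (adjusted p = 3.13e-07). MMP7 fell in the endometrium and rose in the oviduct from 1.05 to 23.4 CPM (adjusted p = 0.000778; difference -13.14, adjusted p = 8.47e-06). COL17A1 fell in both tissues, in the oviduct from 420.1 to 91.8 CPM, and further in the endometrium (difference -4.07, adjusted p = 0.00177). MMP7 had a difference of -14.68 without oviduct day 0 library 2. COL17A1 had a difference of -3.11 without endometrium day 0 library 1.

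UPK1B was at 123 and 77.4 CPM on days 0 and 9 in the oviduct, where its change was not called (adjusted p = 0.466). CYP26A1 was at 0 and 0.0619 CPM in the oviduct and 0.0617 and 0.0326 CPM in the ovary, so that it was detected on day 9 in the endometrium and lay under the detectable level in the other two organs. Its difference was called against the ovary (13.32, adjusted p = 0.00440) and not against the oviduct (adjusted p = 0.993), where all day 0 libraries had 0 counts. The call against the ovary was lost without ovary day 0 library 3 (adjusted p = 0.999). RLBP1 rose in the oviduct too, from 0.173 to 3.70 CPM (adjusted p = 0.000911), and its difference from the endometrium was not called (adjusted p = 0.0519). XDH fell in the ovary from 1.77 to 0.0636 CPM (adjusted p = 0.0167). Tissues of 1 gilt may vary together, which the labels do not resolve, so the 12 libraries of each test were taken as independent.

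**Figure D5:**
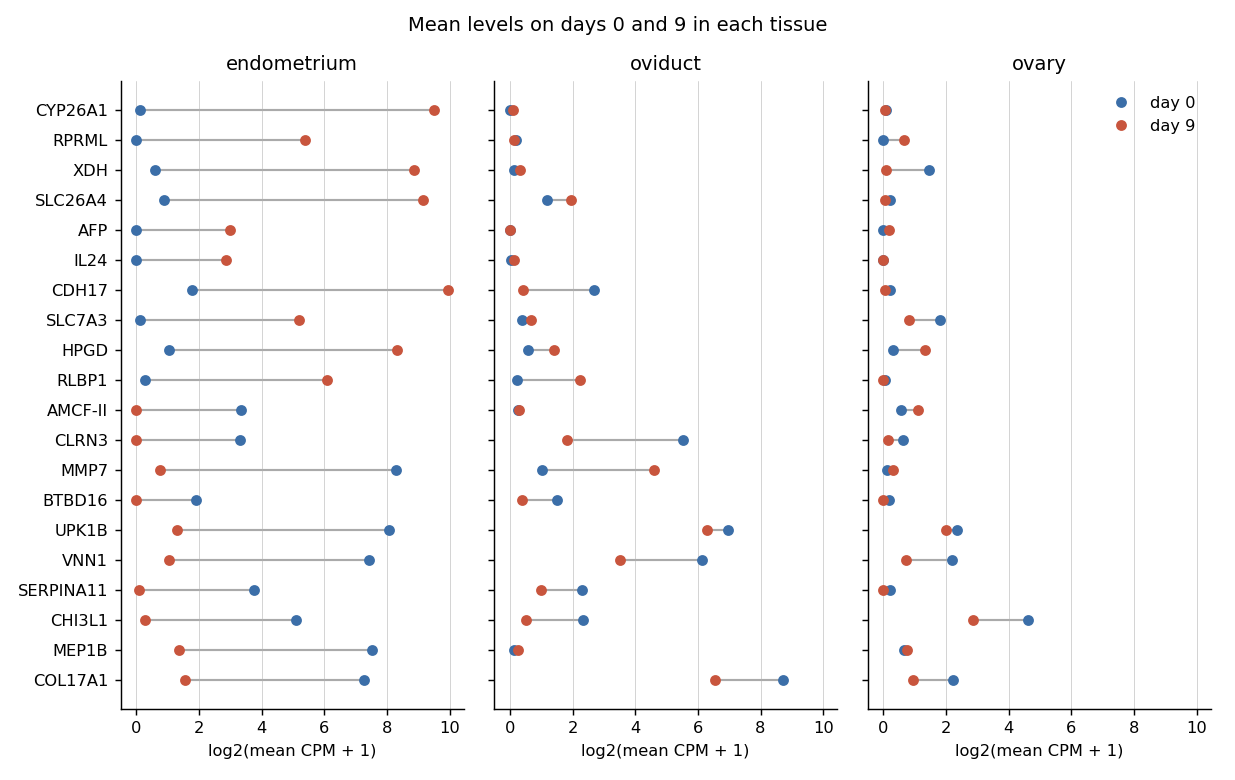
Mean level of the 20 most changed genes in endometrium, oviduct and ovary (3 libraries per day), on days 0 and 9 and on a log2(CPM + 1) axis. Endometrial values are TMM-scaled over the endometrial libraries and those of the other organs over the libraries of all 3 organs; CDH17 and MMP7 run in opposite directions in endometrium and oviduct.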

How the data were processed

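RNA sequencing libraries of endometrium were compared between day 9 and day 0 of the oestrous cycle (3 libraries each). The authors trimmed and mapped paired-end reads to the pig reference and deposited raw, unpooled read counts for each Ensembl gene in each library. The labels' processing notes name FastQC, featureCounts, Cufflinks, Cuffdiff and edgeR; the step that made the counts and its use of strand are not given in the sources used here. The labels name a stranded kit and the study's methods another, so whether overlapping genes on opposite strands were told apart is not known. Libraries were assigned to a group by tissue and day in their labels, the table's numbers naming them within a group. The labels list 4 endometrium samples of day 12, of which 3 were analysed here.

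Counts were analysed with edgeR 4.0.16 in R 4.3.3. All 22 endometrial libraries entered 1 model with day as a factor (TMM, filterByExpr, estimateDisp, robust glmQLFit), and glmQLFTest compared day 9 with day 0 and day 6 with day 18, with Benjamini-Hochberg adjustment and a threshold of 0.05. Models of days 0 and 9 of endometrium with oviduct or ovary (12 libraries each) tested the difference between the tissues' changes. CPM are on TMM-scaled library sizes. The SE is the size of the log2 fold change divided by the root of its F statistic. A fitted fold change of a gene with a group at 0 depends on the prior count, so bounds are the mean of the higher group over 3 counts per library, and ratios of sums of 1 to 3 counts per library carry exact binomial intervals. The reads carry no molecular identifiers, and these intervals and floors reflect counting error alone. P-values measure the spread between libraries that the labels number but do not tie to animals.

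Named genes were the 10 largest rises and falls by the criteria given, up to 3 called members with the largest rise and 3 with the largest fall of each of 14 lists, and all steroid receptors, some of which are not reported here; further list members with values are named beside them and were chosen after their values were seen. The members and lists were chosen with earlier results of these data known. Symbols came from a table that matched 11804 of 25322 identifiers. Listed genes without a match or below the count filter were not tested, so list counts cover tested members only. Alternatives were DESeq2's size factors, no filter on low counts, the replicate number as a block, DESeq2 1.42.0 with its Wald test, other sets of libraries in the fit, leaving out each library and, added after seeing the data, leaving out 1 library of day 15. Same-numbered libraries of the 2 days deviated from their group means with correlations of -0.14, -0.07 and -0.07. The steps were tested on simulated counts. There 22 of 67 genes with a 2-fold change were called in the right direction, 51 of 66 with 4-fold and 57 of 65 with 8-fold. Of 14964 unchanged genes, 4 were called. The changed genes were a far smaller share of all genes than the 24.5% called in the data. The adjusted p depends on that share, so these rates need not hold for the data. A gene not called may still have changed. Tables and figures used Python 3.11.15, numpy 2.4.6, pandas 2.3.3, scipy 1.17.1 and matplotlib 3.10.9.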

Additional observations from a re-analysis of the deposited data

Results flagged for a closer look

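The change from day 0 to day 9 differed between the endometrium and another organ in 4138 genes for the oviduct and 3352 genes for the ovary by the test of the difference itself (edgeR's quasi-likelihood test, adjusted p under 0.05). Of the 20 genes with the largest endometrial changes, 14 differed from the oviduct, beside 27.2% of all genes tested. Since the same endometrial libraries picked out these 20, the count is a description. The difference of the log2 fold changes, endometrium minus oviduct, was 12.10 for RPRML, 8.12 for SLC26A4, 12.61 for CDH17, 7.42 for SLC7A3 and 6.50 for HPGD, and for the genes that fell in the endometrium it was -9.56 for AMCF-II, -5.27 for CLRN3, -13.14 for MMP7, -5.19 for BTBD16, -6.80 for UPK1B, -4.53 for VNN1, -5.23 for SERPINA11, -4.05 for CHI3L1 and -4.07 for COL17A1. Against the ovary 14 differed as well, beside 22.0% of all genes tested. The difference, endometrium minus ovary, was 13.32 for CYP26A1, 14.21 for XDH, 11.13 for SLC26A4, 10.46 for CDH17, 9.95 for SLC7A3, 5.66 for HPGD and 9.97 for RLBP1, and -10.75 for AMCF-II, -7.20 for CLRN3, -10.09 for MMP7, -7.12 for UPK1B, -4.93 for VNN1, -5.40 for CHI3L1 and -4.41 for COL17A1. Where a group was at 0, the size of such a difference depends on the prior count and is no bound. For some genes with a group at 0 the SE was far larger than the difference, so the test could not call them. These were AFP and CYP26A1 against the oviduct (SE 15032 and 536) and RPRML, AFP, IL24 and BTBD16 against the ovary (SE from 7150 to 32888). For these genes a difference not called does not mean an equal change. Without 1 library or another the difference was no longer called for RPRML, AMCF-II, CLRN3, BTBD16 and CHI3L1 against the oviduct (adjusted p up to 0.203, for CHI3L1) and for CYP26A1, RLBP1 and CLRN3 against the ovary.

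On day 15, the group of 4 libraries, the highest library stood apart from the other 3 in 6 of the 20 genes. Its gap to the nearest library was 0.962 of the group's whole range for XDH, 1.0 for AFP, 0.954 for IL24, 0.994 for RLBP1, 0.917 for MMP7 and 0.837 for UPK1B. The highest library was library 2 for XDH, AFP, IL24 and RLBP1 and library 4 for MMP7 and UPK1B. Chance gives such a gap in about 1 in 20 groups of normally spread values, a rate that need not hold for CPM or where the other 3 libraries lie near or at 0, as for XDH, AFP, IL24 and RLBP1. Library 2 is also the one that lay with days 6 to 12 on the first principal component. The libraries of day 15 ranged from 0.283 to 4.73 CPM for XDH, 0 to 1.51 for AFP, 0 to 19.0 for IL24, 0.188 to 62.0 for RLBP1, 0.567 to 447 for MMP7 and 0.945 to 39.7 for UPK1B. Day 15 enters the fit of days 0 and 9 through the dispersion shared by all days.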

How the results depend on the processing

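The direction and the side of the threshold held for all 12 counts of changed genes to within 1.5 times with DESeq2's size factors, without a filter on low counts, with DESeq2's Wald test and with the replicate block. With DESeq2's Wald test 2154 genes rose and 2220 fell, and with only the 6 libraries of days 0 and 9 in the fit 2572 rose and 2588 fell. Leaving out 1 library gave 2314 to 3078 called genes, 1155 to 1450 higher and 1134 to 1630 lower, and for day 6 against day 18 2286 to 2906, with 1160 to 1483 higher and 1098 to 1590 lower; such fits hold fewer samples. With all days in the fit, the differences from the oviduct numbered 2516 (1364 higher, 1152 lower) and those from the ovary 1735 (775 higher, 960 lower); the cause was not tested. Of the 89 named genes called, 63 were called in every setting. KRT20 reversed, to 0.54 (adjusted p = 0.701 by edgeR's quasi-likelihood test) without day 0 library 2, and lay between -3.61 and 0.54 over the libraries left out. With only the 6 libraries in the fit, 18 genes of cholesterol synthesis rose and 23 of the cell cycle fell; without the filter 3 of the cell cycle fell. Same-numbered libraries of the 2 days did not deviate together. Whether equal numbers mark organs of 1 gilt was not tested. Library numbers are shared between the days, but different gilts were sampled, so the numbers are not taken as a pairing. With them as a block, 1832 genes rose and 1808 fell (3640 called), and the call was lost among the genes the text names for IL24 (adjusted p = 0.0558), KRT20 (adjusted p = 0.140), MCM4 and MCM5 (adjusted p = 0.0629 for each). With day 15 library 2 left out of the fit the called genes numbered 4485, and 4344 for day 6 against day 18. With 3 counts at about 0.3 CPM, lower levels were not detectable at this depth.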

Other observations

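SAT1, ODC1, OAT, PHGDH and OGDH were among the genes with the largest gain in CPM on day 9 and were chosen after their values were seen. SAT1, which acetylates polyamines for export, was at 4123, 3922 and 3241 CPM on day 0 and 10953, 13447 and 13194 CPM on day 9 (log2 fold change 1.74, adjusted p = 0.000742). ODC1, the first enzyme of polyamine synthesis, was at 211, 164 and 183 CPM on day 0 and 2560.1, 3188 and 2278 CPM on day 9 (log2 fold change 3.84, adjusted p = 0.000208), and OAT, which interconverts ornithine and glutamate semialdehyde, was at 76.9, 76.3 and 79.7 CPM on day 0 and 1733, 2139 and 1508 CPM on day 9 (log2 fold change 4.53, adjusted p = 7.77e-05). SAT1, ODC1 and OAT were higher in every library of day 9. PHGDH, the first enzyme of serine synthesis, rose from 88.2 ± 14.5 CPM to 3306 ± 758 CPM (SD, n = 3 each; log2 fold change 5.23, adjusted p = 1.79e-05), and OGDH, of the citric acid cycle, from 542 ± 187 CPM to 4818 ± 768 CPM (log2 fold change 3.15, adjusted p = 0.00198). Among genes without a symbol, ENSSSCG00000004179 fell from 1563 ± 1058 CPM to 0.590 ± 0.0696 CPM (adjusted p = 0.000261) and ENSSSCG00000002981 from 1177 ± 353 CPM to 0.173 ± 0.157 CPM (SD, n = 3 each; adjusted p = 0.000337).

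A list of interferon-stimulated genes, drawn up after values were seen, had 13 rises and 0 falls among 24 tested (median log2 fold change 0.93), where 12.0% of all genes tested rose and 12.5% fell. RSAD2 was at 7.82, 7.45 and 6.46 CPM on day 0 and 41.9, 28.8 and 39.4 CPM on day 9 (log2 fold change 2.34, adjusted p = 0.00269), and EIF2AK2, the RNA-sensing kinase PKR, was at 3.71, 3.53 and 2.86 CPM on day 0 and 15.3, 14.9 and 19.1 CPM on day 9 (log2 fold change 2.28, adjusted p = 0.00228). The count was 8 without day 0 library 2 or 3 or day 9 library 1. Of 24 tested genes in a list of lipid uptake and fatty acid handling, 6 rose and 1 fell (median 0.33), beside the same shares. The fall was that of LDLRAD4 (log2 fold change -1.65, adjusted p = 0.0153), and whether this gene acts in lipid handling was not tested. Its call was lost without day 9 library 1 or 3 (adjusted p from 0.0557 to 0.0687). LIPG, endothelial lipase, was at 1.30, 2.77 and 5.08 CPM on day 0 and 475, 531 and 218 CPM on day 9 (log2 fold change 7.05, adjusted p = 0.000584), and SLC27A6, a fatty acid carrier, was at 6.12, 3.05 and 3.23 CPM on day 0 and 555, 505 and 419 CPM on day 9 (log2 fold change 6.90, adjusted p = 0.00192). The rises numbered 3 without day 0 library 2 or day 9 library 1. LIPG had a log2 fold change of 7.64 without day 0 library 3. Of 23 tested genes of retinoid handling, 3 rose and 3 fell (median 0.20), about the shares of all genes tested in both directions; 5 rose and 4 fell with day 15 library 2 left out of the fit. Beside CYP26A1 and RLBP1, RDH11 rose (log2 fold change 0.57, adjusted p = 0.0106), and the retinoic acid receptor RARA (log2 fold change -1.53, adjusted p = 0.00227), the binding protein CRABP1 (log2 fold change -2.33, adjusted p = 0.00408) and ALDH1A1, which makes retinoic acid (log2 fold change -1.62, adjusted p = 0.0193), fell. The call of RDH11 was lost without day 0 library 3 (adjusted p = 0.0535). ALDH1A1 missed the threshold without day 0 library 2 or day 9 library 3 (adjusted p from 0.0596 to 0.0840). Among 16 families taken by symbol, 3 with high shares were chosen after their values were seen: 9 of 27 tested NDUF genes of mitochondrial complex I rose and 0 fell, 8 of 15 serpins fell and 1 rose, and 8 of 11 complement genes fell and 0 rose, again beside 12.0% and 12.5% of all genes tested. Of the larger families, 10 of 160 ZNF genes of zinc finger proteins rose and 9 fell, and 49 of 226 solute carriers rose and 30 fell.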
